A study of Oncorhynchus gorbuscha with 76 samples.

Results

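The genes amh, dmrt1 and insl3, grouped here as factors of the somatic cells of the gonad, were followed through the spawning migration of pink salmon (Oncorhynchus gorbuscha). They were picked by symbol and are 3 of the 40756 genes listed in the deposited tables. Polyadenylated RNA was sequenced in 76 libraries from 28 fish, taken from muscle, head kidney and gonads of both sexes at an ocean, a river and a spawning stage. The fish were migrating animals with no genotype or treatment in the labels beyond the stage, and no age was given. Gonads were sampled from 4 ocean, 4 river and 5 spawning females and from 5 males at each stage. Head kidney had 4 libraries per sex and stage. Muscle also had 4, apart from 5 for river males and 3 for spawning males. Female gonads are called ovary and male gonads testis below, after the sex in the labels. Each stage was sampled from other fish, so the comparisons are between fish and not within a fish. The question the design poses is how each organ changes as the fish move from the ocean to the spawning ground.

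Anti-Müllerian hormone, the product of amh, is a ligand of the TGF-beta family that Sertoli cells of the testis and granulosa cells of the ovary secrete. It signals through type I receptors and SMAD proteins shared with the bone morphogenetic proteins, and in zebrafish it restrains the build-up and differentiation of germ cells. The product of dmrt1 is a DM-domain transcription factor that promotes and maintains the testis fate in vertebrates. The product of insl3 is a relaxin-family peptide of Leydig cells, the steroid-producing cells between the tubules, and in zebrafish it promotes the differentiation of spermatogonia. Pink salmon spawn once and then die, so a spawning gonad is at or near the end of its only reproductive cycle.

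The gonad libraries held 12719694 to 17696550 counts, head kidney libraries 13651505 to 18724203 and muscle libraries 15784611 to 29286325. Levels below are counts of a gene per 1000000 counts of its library (CPM). They are not divided by gene length, so levels of different genes are not ranked against each other. The labels number the fish of a group and give no site, day or batch. A difference between stages therefore cannot be told apart from a difference in site, day or batch. The p-values set it against the spread between these fish only. The germ cell markers of the testis were present in ocean and river males: sycp1, which encodes a synaptonemal complex protein of meiosis, was at 2634 to 11827 CPM there. In spawning males sycp1 was at 0 to 0.204 CPM. The 10 oocyte markers that the tables list by symbol summed to 0.394 to 1.79 CPM in ocean and river ovaries, with 5 to 7 of the 10 at 0. At spawning the sum was 122 CPM in female 3, 17.2 CPM in female 5 and 0.971 to 1.60 CPM in the other 3 females. In ocean and river testes the same sum was 2.68 to 4.80 CPM, above every ocean and river ovary. These 10 markers therefore do not set ovary apart from testis in the ocean and river libraries, and the female label was not checked by them.

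All 3 genes were highest in spawning gonads, and insl3 and amh had higher means in each gonad group than in any group of muscle or head kidney. For dmrt1 that held for testis and spawning ovary but not for earlier ovaries: the mean was 0.0887 CPM in ocean ovary against 0.166 CPM in ocean male head kidney. For amh the group means ran from 309 CPM in spawning ovary and 297 CPM in spawning testis, whose ranges overlapped, down through river ovary, ocean ovary, river testis and ocean testis. The ranges of ocean ovary and river testis overlapped, and the other neighbours in that order did not. All 6 gonad groups had ranges above every muscle library, where the highest value was 8.12 CPM. Only head kidney reached the range of ocean testis, with 13.1 CPM in 1 library and 11.6 CPM in another. For dmrt1 and insl3 the order was spawning, river and ocean testis and then spawning ovary. River and ocean testis overlapped for dmrt1, and no neighbours among these 4 groups overlapped for insl3. Below spawning ovary both genes were at a few counts per library or at 0, and neighbouring groups in the order overlapped.

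In the testis insl3 had the widest range of the 3 genes. It was at 3.34, 7.36, 7.71, 15.4 and 6.68 CPM in ocean males 1, 3, 6, 8 and 9. In river males 2, 3, 4, 5 and 6 it was at 86.7, 20.6, 20.2, 27.1 and 131 CPM. In spawning males 6, 7, 8, 9 and 10 it was at 24721, 33321, 21929, 17444 and 13465 CPM. No library of one stage overlapped with another stage, and at spawning this single gene took up 1.35% to 3.33% of all counts of a library. The mean rose from 8.09 ± 4.43 CPM in the ocean (SD, n = 5) to 57.2 ± 49.99 in the river (n = 5) and 22176 ± 7567 at spawning (n = 5). From ocean to spawning the log2 fold change was 11.33 ± 0.82 (SE, edgeR quasi-likelihood test, 2-sided, Benjamini-Hochberg adjusted p = 4.24e-09), and 8 of the 28149 genes tested had a larger rise. With the same test 84% of all genes were called in that comparison at an adjusted p under 0.05, 40.7% higher and 43.2% lower at spawning, so a call alone sets no gene apart. From ocean to river insl3 rose by 3.08 ± 0.58 (edgeR, adjusted p = 0.00160), where 39.2% of genes were called, 25.8% higher and 13.4% lower in the river. From river to spawning it rose by 8.25 ± 0.73 (edgeR, adjusted p = 4.62e-08), where 80.6% were called. These are bulk tissue samples, in which a change in the number of cells of a type and a change in RNA per cell cannot be told apart.

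Testis amh rose at both steps. Its level was 11.03, 12.9, 17.1, 16.3 and 15.5 CPM in ocean males 1, 3, 6, 8 and 9. River males 2, 3, 4, 5 and 6 had 39.7, 24.8, 18.9, 20.8 and 54.1 CPM. Spawning males 6, 7, 8, 9 and 10 had 527, 235, 331, 266 and 124 CPM. Again no 2 stages overlapped, and spawning male 10 was the lowest of its stage. The means were 14.6 ± 2.52, 31.6 ± 15.0 and 297 ± 149 CPM (SD, n = 5 each). The log2 fold change was 1.38 ± 0.36 from ocean to river (edgeR, adjusted p = 0.00833), 2.88 ± 0.37 from river to spawning (adjusted p = 3.09e-06) and 4.25 ± 0.40 from ocean to spawning (adjusted p = 6.63e-08). From ocean to spawning 2897 of the 28149 genes tested (10.3%) had a larger rise, and 84% of genes were called.

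For testis dmrt1 the rise from river to spawning passed the test and the step before it did not. Ocean males 1, 3, 6, 8 and 9 had 41.2, 44.9, 33.4, 41.3 and 35.1 CPM, and river males 2, 3, 4, 5 and 6 had 85.0, 29.1, 21.3, 30.1 and 42.6 CPM. Spawning males 6, 7, 8, 9 and 10 had 283, 263, 183, 185 and 216 CPM. Ocean and river overlapped, with 3 of the 5 river males below every ocean male and river male 2 above every one, while every spawning male was above both. The log2 fold change from ocean to river was 0.32 ± 0.27 (edgeR, adjusted p = 0.357), and without river male 2 it was -0.22 (adjusted p = 0.383). From river to spawning dmrt1 rose by 2.13 ± 0.28 (edgeR, adjusted p = 3.36e-06) and from ocean to spawning by 2.45 ± 0.28 (adjusted p = 6.86e-07). In the latter comparison 6861 of the 28149 genes tested (24.4%) had a larger rise, and 84% of genes were called. The rise of dmrt1 was thus not unusual among all genes. The means were 39.2 ± 4.78, 41.6 ± 25.4 and 226 ± 45.6 CPM (SD, n = 5 each).

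River males 2 and 6 stood above the other 3 river males in all 3 genes. The same fish were highest for fshr, the receptor of follicle-stimulating hormone on Sertoli cells, at 28.6 and 16.3 CPM against 7.01 to 8.42 CPM. They were also highest for star, which encodes the protein that delivers cholesterol for steroid synthesis, at 77.5 and 99.3 CPM against 18.1 to 22.9 CPM. The endothelial receptor gene kdr followed the same split, at 39.8 and 27.5 CPM against 10.8 to 13.2 CPM. The meiosis gene sycp1 did not, at 6156 and 11433 CPM against 5785 to 11827 CPM.

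**Figure D1:**
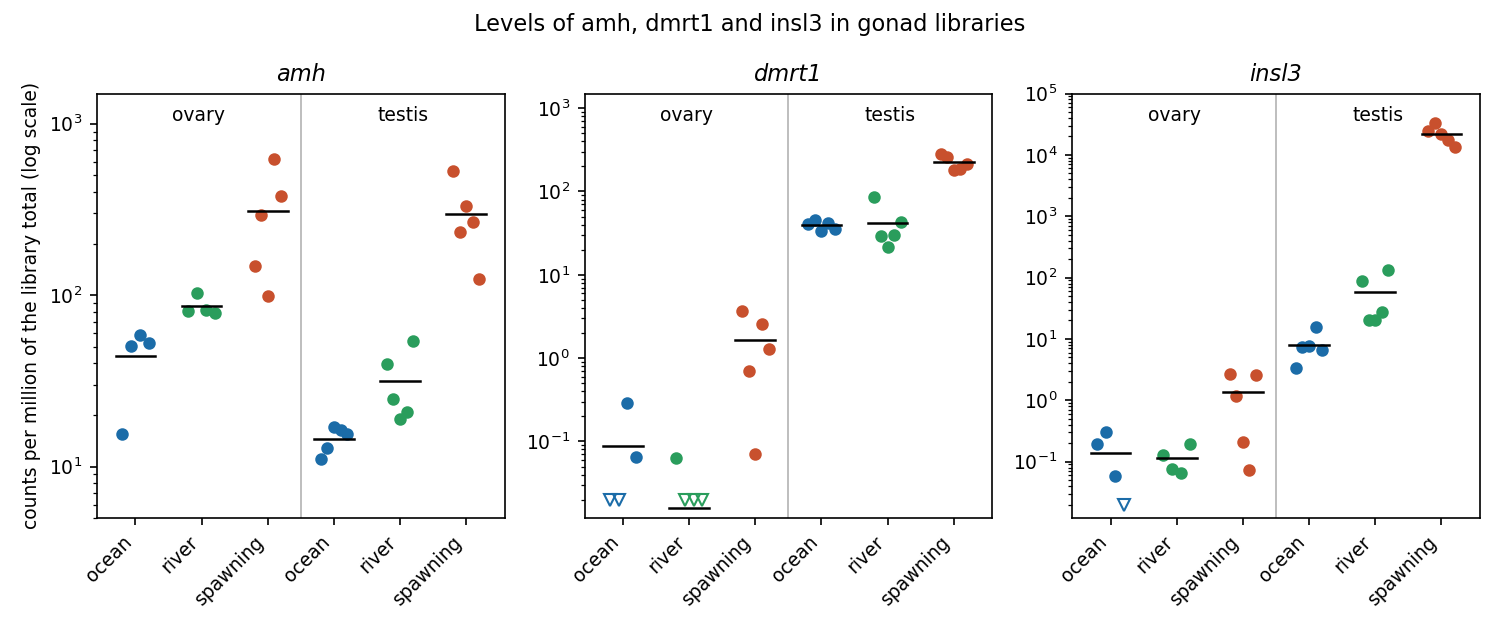
Levels of amh, dmrt1 and insl3 in each gonad library by sex and stage, in CPM on a log axis whose range differs between panels; points are libraries, bars are group means and open triangles mark libraries with no count. Testis insl3 climbs from 3.34 to 33321 CPM over the stages, amh overlaps between spawning ovary and testis, and dmrt1 is at a few counts or 0 in ocean and river ovary.

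In the ovary amh was the gene with a clear signal at every stage. Ocean females 2, 4, 5 and 7 had 15.4, 50.2, 58.6 and 52.4 CPM, and river females 1, 7, 8 and 9 had 81.0, 103, 81.6 and 78.6 CPM. Spawning females 1, 2, 3, 4 and 5 had 147, 293, 99.4, 625.005 and 379 CPM. River females were all above ocean females, and spawning female 3 fell within the river range. The means were 44.1 ± 19.5 (SD, n = 4), 86.0 ± 11.3 (n = 4) and 309 ± 209 CPM (n = 5). Ovary amh rose from ocean to spawning by 2.57 ± 0.48 on the log2 scale (edgeR, adjusted p = 0.00130), where 36.3% of 28339 genes were called, 16.3% higher and 20% lower. It rose from river to spawning by 1.62 ± 0.46 (edgeR, adjusted p = 0.0151), where 37.9% were called. From ocean to river the difference was 0.96 ± 0.47 (edgeR, unadjusted p = 0.0641, adjusted p = 0.634). In that comparison 0% of genes were called by edgeR, 2338 genes had an unadjusted p under 0.05, and DESeq2 called 149.

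Ovary dmrt1 and insl3 were near the limit of detection before spawning. For dmrt1 ocean females 2, 4, 5 and 7 had 0, 0, 5 and 1 counts, and river females 1, 7, 8 and 9 had 1, 0, 0 and 0 counts. Spawning females 1, 2, 3, 4 and 5 had 57, 10, 1, 35 and 19 counts. All spawning females other than female 3 were above every earlier one. From ocean to spawning dmrt1 rose by 3.92 ± 1.14 on the log2 scale (edgeR, adjusted p = 0.0170). The gene passed the filter on low counts only through the spawning females, so this p-value does not stand apart from that selection. The ratio of pooled CPM, spawning over ocean, was 18.01, with an exact binomial 95% interval of 8.04 to 50.03 that covers counting error only. Over the river group, which held 1 count in all, the ratio was 101 (17.7 to 4004, same interval). Leaving out spawning female 1, 2, 4 or 5 took the gene below the filter on low counts, so the test rests on all 4 of them.

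For insl3 ocean females 2, 4, 5 and 7 had 3, 5, 1 and 0 counts, and river females 1, 7, 8 and 9 had 2, 1, 1 and 3 counts. Spawning females 1, 2, 3, 4 and 5 had 42, 17, 3, 1 and 39 counts. Spawning females 1, 2 and 5 were above all earlier ones, and females 3 and 4 lay within their range. The gene did not pass the filter on low counts in ovary. The pooled ratio was 10.0 (exact binomial 95% interval 5.08 to 22.6) for spawning over ocean and 12.01 (5.62 to 30.6) for spawning over river. Both intervals cover counting error only and not the spread between fish. With no filter the edgeR adjusted p was 0.0527 for spawning against ocean and 0.0371 for spawning against river. Female 4 had the highest amh of its group and the lowest insl3. Female 3, which had the highest oocyte marker sum, had the lowest amh and dmrt1, and the part of oocyte RNA in these levels was not tested.

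Ovary and testis differed in opposite directions for these genes. The level of amh was higher in ovary than in testis in the ocean, by 1.61 ± 0.43 on the log2 scale (edgeR over all 6 gonad groups, adjusted p = 0.00161), where 79.1% of 31687 genes were called. In the river the difference was 1.21 ± 0.43 (edgeR, adjusted p = 0.0134), where 77% were called. At spawning it was -0.08 ± 0.40 (edgeR, adjusted p = 0.895), where 40.3% were called, and its sign changed with the scaling. The rise of amh from ocean to spawning was smaller in ovary than in testis by 1.70 ± 0.59 (interaction term of -1.70, edgeR adjusted p = 0.0134), where 69.6% of genes were called. The spawning means were 309 CPM in ovary and 297 CPM in testis, with overlapping ranges.

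The other 2 genes were higher in testis at every stage. For dmrt1 the female minus male difference was -8.59 ± 0.76 in the ocean (edgeR, adjusted p = 2.12e-10) and -7.18 ± 0.57 at spawning (adjusted p = 4.19e-10). Ocean ovaries held 0 to 5 counts of dmrt1 per library and spawning ovaries 1 to 57. The gene thus passed the filter on low counts through groups where it is higher. The dmrt1 p-values between the sexes do not stand apart from that selection. In the river the pooled testis over ovary ratio was 2542 (exact binomial 95% interval 456 to 100455, which covers counting error only). The interaction of sex with the ocean to spawning change was 1.41 ± 0.95 for dmrt1 (edgeR, adjusted p = 0.189). Without ocean female 5, which held 5 of the 6 ocean counts, it was 3.16 (adjusted p = 0.0401). For insl3 the female minus male difference was -5.74 ± 0.93, -9.07 ± 1.03 and -14.08 ± 1.02 in the ocean, the river and at spawning (edgeR, adjusted p = 4.60e-06, 1.87e-08 and 1.01e-10). Only 2 genes had a lower value at spawning. The insl3 interaction was -8.34 ± 1.54 (edgeR, adjusted p = 3.65e-05). In this joint fit insl3 passed the filter on low counts through testis alone. Its differences between the sexes thus set testis against ovary libraries of 0 to 42 counts. Pooled over the fish, the counts of insl3 to dmrt1 in spawning ovary stood at 0.836 to 1, and in spawning testis at 99.0 to 1. Single spawning females differed widely: female 4 had 1 count of insl3 and 35 of dmrt1, and female 5 had 39 and 19. The pooled counts of insl3 to amh stood at 0.00461 to 1 in spawning ovary and 76.2 to 1 in spawning testis.

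The 3 genes did not rise in step in the testis. Ratios of counts within a library, which do not depend on scaling between libraries, were compared with 2-sided exact permutation tests over the fish, adjusted over 21 comparisons that were chosen after the data were seen. With 5 fish a group an exact permutation test cannot go below p = 0.00794. The count of insl3 was 0.305 to 0.943 times that of amh in ocean testes, 0.832 to 2.43 times in river testes and 46.9 to 142 times in spawning testes. From ocean to spawning the log2 ratio rose by 7.30 (exact permutation p = 0.00794, adjusted p = 0.0139), with no overlap. The ratio of dmrt1 to amh moved the other way, from 1.96 to 3.72 in ocean to 0.538 to 1.74 in spawning testes. Its log2 value fell by 1.70 (exact permutation p = 0.00794, adjusted p = 0.0139), again with no overlap. From river to spawning the dmrt1 to amh ratio differed by -0.60 (exact permutation p = 0.198, adjusted p = 0.208), and without spawning male 10 by -0.87 (exact permutation p = 0.0317 before adjustment). Spawning male 10 had the highest ratio of its stage, at 1.74, so the p-value without it is no separate test and the comparison was not called.

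Against star and fshr the rises were also unequal, and which cells carried dmrt1 was not tested. The ratio of insl3 to star, both Leydig cell genes, was 0.465 to 0.669 in ocean, 0.994 to 1.32 in river and 4.74 to 6.34 in spawning testes. The spread within a stage was small, at an SD of 0.15 to 0.22 on the log2 scale, and no stages overlapped. Its log2 value rose by 0.99 from ocean to river and by 3.15 from ocean to spawning (exact permutation p = 0.00794 for each, adjusted p = 0.0139). Both amh and dmrt1 lagged behind fshr. From ocean to spawning the log2 ratio to fshr fell by 2.63 for dmrt1 (exact permutation p = 0.00794, adjusted p = 0.0139) and by 0.93 for amh (exact permutation p = 0.0159, adjusted p = 0.0196). For amh the stages overlapped and spawning male 10 was the lowest; without it the difference was -0.60 (exact permutation p = 0.0317 before adjustment). The amh to fshr ratio also fell in the ovary, by 1.54 from ocean to spawning (exact permutation p = 0.0159, adjusted p = 0.0196), from 3.04 to 5.21 in ocean to 0.829 to 2.55 in spawning females.

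**Figure D2:**
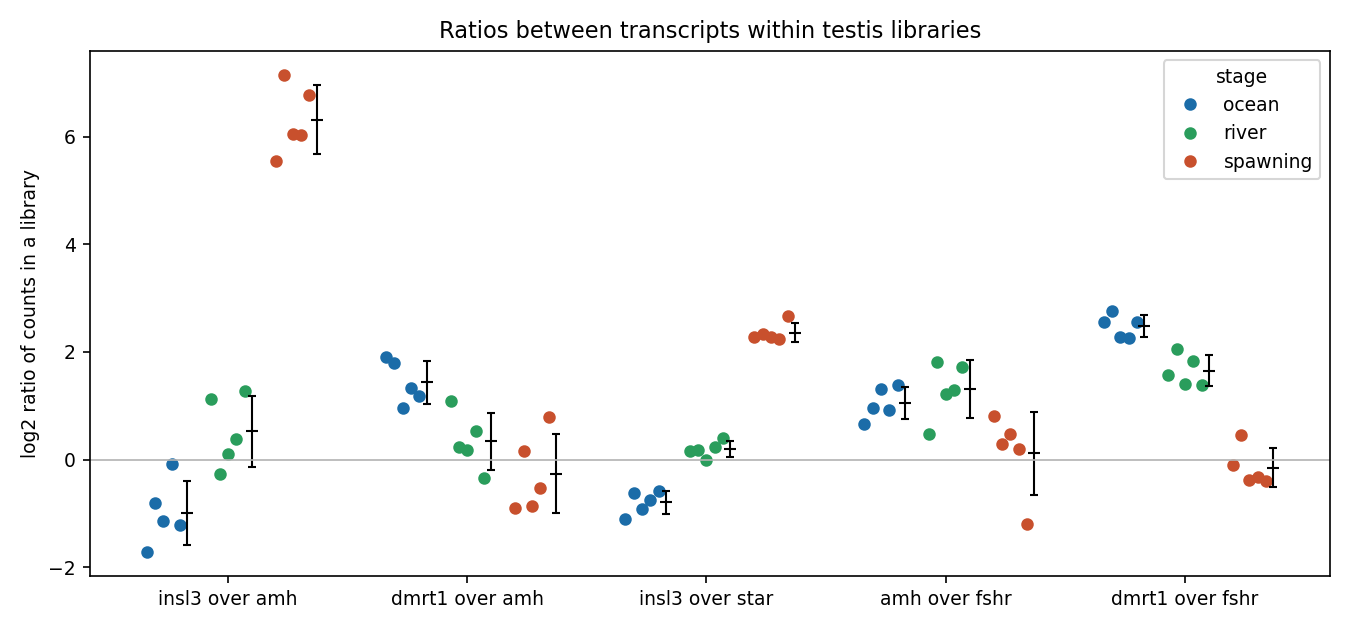
Log2 ratios of counts between pairs of transcripts within each testis library, by stage; points are fish, and the bar beside each set is the mean with 1 SD (n = 5). The insl3 over amh and insl3 over star ratios climb from stage to stage while dmrt1 over amh and dmrt1 over fshr are lowest at spawning.

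From ocean to spawning most germ line genes of the testis fell while the 3 factors rose, which was not so from ocean to river. Members of these lists were matched by symbol, and the lists were chosen with earlier results of these data known. From ocean to spawning all 18 meiosis genes tested fell, with a median log2 fold change of -12.05 against -0.12 over all genes tested, of which 43.2% were called lower. Examples are meiob at -12.72 ± 0.37 and sycp2, a synaptonemal complex gene, at -13.28 ± 0.41 (edgeR, adjusted p = 5.25e-13 and 9.69e-13). Of 7 early germ cell genes 6 fell, among them ddx4, a germ cell RNA helicase (-11.77 ± 0.52). Of 14 spermatid and flagellum genes 13 fell. From ocean to river the picture was different: 0 of 18 meiosis genes were called, at a median of 0.03, where 25.8% of all genes were called higher and 13.4% lower. Of the 7 early germ cell genes 5 were lower, among them piwil2 (-1.32 ± 0.28), and 2 were higher, among them sall4 (2.24 ± 0.37). Of 14 spermatid and flagellum genes 5 were higher and none lower, among them meig1 (1.05 ± 0.18) and rsph1 (0.87 ± 0.23). The summed level of the 18 meiosis genes was 8178 to 14857 CPM in ocean, 9565 to 15411 in river and 31.5 to 58.4 CPM in spawning testes, with 5 to 10 of them at 0 at spawning. The part of this loss of germ cell RNA in the CPM of amh, dmrt1 and insl3 at spawning was not tested.

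Genes of the somatic cells rose with the 3 factors. All 4 Sertoli and granulosa genes tested rose in testis from ocean to spawning, where 40.7% of all genes were called higher and 43.2% lower. From ocean to river, where 25.8% of all genes were called higher and 13.4% lower, all 4 had risen too. They were fshr (5.07 ± 0.35, edgeR adjusted p = 2.17e-09 at spawning), nr5a1b, which encodes a steroidogenic transcription factor (5.70 ± 0.43), the Kit ligand gene kitlga (2.91 ± 0.58) and the transcription factor gene gata4 (2.49 ± 0.40). The level of kitlga was low, at an average log2 CPM of -0.288 over the testis libraries. It passed the filter on low counts through the stages where it is higher, so its calls do not stand apart from that selection. Of 8 genes of steroid synthesis 6 rose and 1 fell from ocean to spawning, against 40.7% of all genes called higher and 43.2% lower. The rises included star (8.24 ± 0.68), hsd3b1 (7.74 ± 0.61), the electron carrier gene fdx1b (7.34 ± 0.55) and lhcgr, the receptor of luteinizing hormone (6.94 ± 0.54). The member that fell, hsd20b2, encodes a hydroxysteroid dehydrogenase (-8.44 ± 0.63). The rise of insl3 was larger than that of every member of both lists, and that of dmrt1, at 2.45 ± 0.28, lay nearest to gata4 and to fdxr (2.16 ± 0.36), an electron carrier reductase gene of the steroid list.

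Of the 12 receptor, SMAD and target genes of the pathway that anti-Müllerian hormone shares with bone morphogenetic proteins, 10 rose and 2 fell in testis from ocean to spawning. All 12 were thus called, where 84% of all genes were called, 40.7% higher and 43.2% lower. The type I receptor gene bmpr1ba rose by 5.57 ± 0.38, and bmpr1bb by 3.42 ± 0.41. The target genes id2a and id3 rose by 5.74 ± 0.53 and 5.43 ± 0.48, and smad6b and smad7, which encode inhibitory SMADs, by 3.50 ± 0.50 and 4.53 ± 0.54 (edgeR, adjusted p of 8.00e-06 or lower for each of these). The 2 that fell were acvr1l (-0.90 ± 0.16) and smad4a (-0.43 ± 0.13). In ovary 5 of the 12 rose and 1 fell, against 16.3% of all genes called higher and 20% lower: bmpr1bb rose by 2.36 ± 0.38 and id3 by 1.81 ± 0.23, and smad9 fell by 1.99. In the DM-domain family 1 other gene was tested, and dmrt2b rose in testis (4.38 ± 0.80) and in ovary (4.32 ± 0.88) from a level of at most 0.512 CPM in ocean gonads. It passed the filter on low counts only through the later stages, so these calls do not stand apart from that selection. In ocean muscle the mean of dmrt2b was higher than in ocean gonads, at 7.62 CPM in females and 4.35 CPM in males. In the relaxin family rln3b fell in testis by 6.14, from 3.52 to 6.29 CPM in ocean to 0 to 0.193 CPM in spawning males, while insl3 rose.

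Markers of other cells moved in testis too. All 5 endothelial genes tested rose from ocean to spawning, where 40.7% of all genes were called higher and 43.2% lower. The 5 had a median log2 fold change of 4.81 against -0.12 over all genes tested. The level of vwf reached 94.0 to 384 CPM from 1.40 to 2.24. The summed level of the 5 endothelial genes was 12.0035 to 17.3 CPM in ocean, 23.1 to 78.2 in river and 462 to 913 in spawning testes. The 5 macrophage genes summed to 5.48 to 9.65, 12.3 to 57.3 and 47.4 to 126 CPM, with up to 2 of them at 0 in ocean males. The 6 erythroid genes summed to 2.94 to 5.76, 1.94 to 12.7 and 17.4 to 77.0 CPM. The 6 kidney tubule genes summed to 13.4 to 18.2, 19.6 to 92.2 and 482 to 766 CPM, led by slc34a1a (8.07 ± 0.76), and 2 of the 6 were at 0 in each spawning testis. Of the 4 tubule genes tested 2 rose and 1, cubn, fell (-1.22 ± 0.26). The 7 genes of the skeletal muscle list summed to 2.89 to 11.01, 6.55 to 12.3 and 105 to 231 CPM, with actc1a higher (7.61 ± 0.70) and myl1 lower (-5.38 ± 0.84). In river muscle itself actc1a had means of 0.382 CPM in females and 1.09 CPM in males, against 5467 and 4232 CPM for myl1. Its level in spawning muscle is not given here, and whether a rise of actc1a marks muscle cells was not tested. The part of these cells in the rise of the 3 factors was not tested.

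In ovary most genes of the somatic lists rose and most endothelial genes did not. Of all genes tested there 16.3% were called higher and 20% lower from ocean to spawning. In that comparison 4 of 5 Sertoli and granulosa genes rose, with fshr at 3.96 ± 0.33 and nr5a1b at 2.67 ± 0.45 (edgeR, adjusted p = 5.34e-06 and 6.09e-04). Of 8 genes of steroid synthesis 7 rose, with hsd3b1 at 5.40 ± 0.45 and star at 4.68 ± 0.41. Of 5 endothelial genes 1 rose and 3 fell, and their sum was 734 to 1352 CPM in ocean and 531 to 616 in spawning ovaries. Of 6 erythroid genes 4 fell. Both genes tested of the skeletal muscle list rose, as both had in testis: actc1a by 3.59 ± 0.44 and neb by 2.45 ± 0.58 (edgeR, adjusted p = 5.94e-05 and 0.00565). The means of actc1a were 0.382 and 1.09 CPM in female and male river muscle, and whether its rise marks muscle cells was not tested. The median over all genes tested was -0.02. Ovary amh therefore rose beside mostly lower endothelial and erythroid markers, which rose in testis, and beside higher actc1a and neb as in testis. Their part in its level was not tested.

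**Figure D3:**
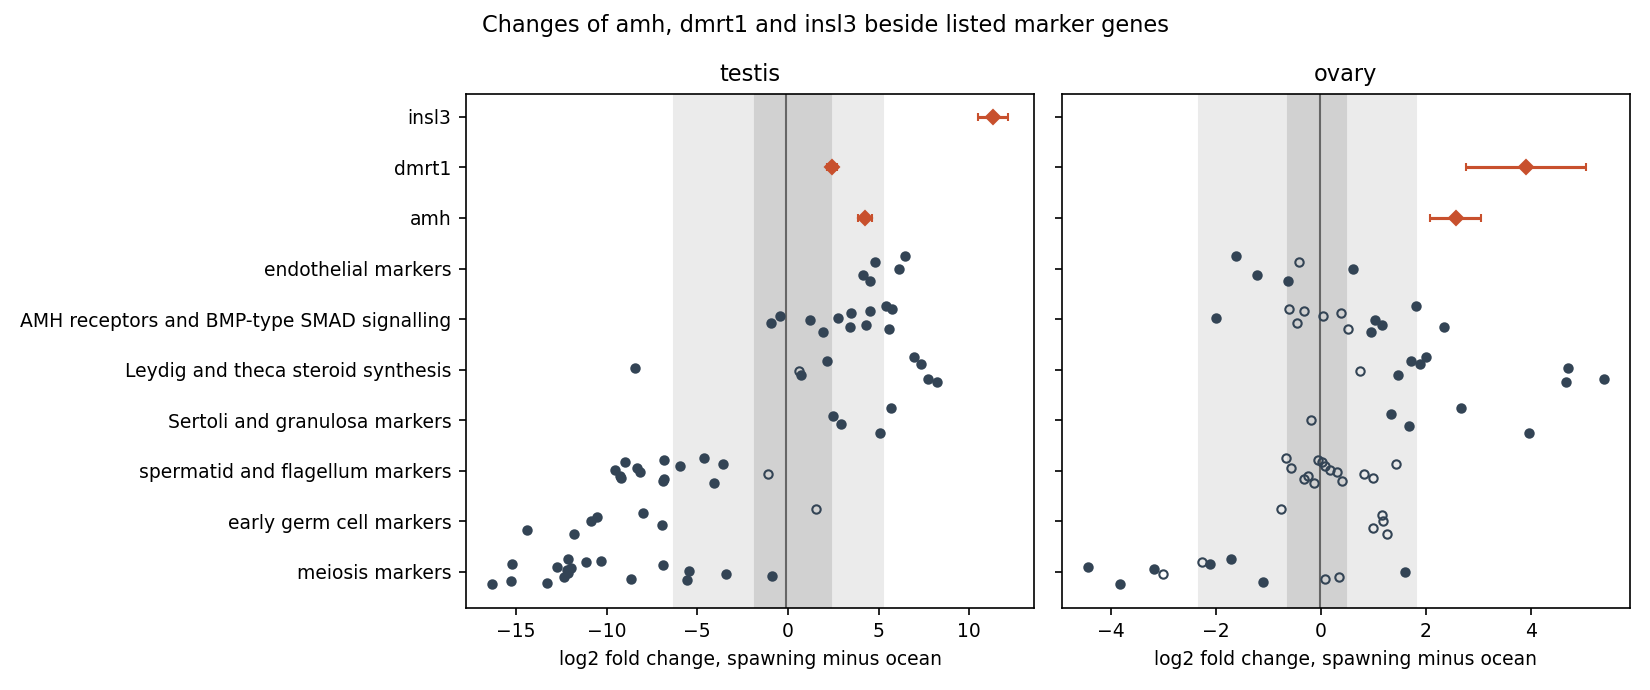
Log2 fold change from ocean to spawning in testis and ovary for listed marker genes (circles, filled where the edgeR adjusted p is under 0.05) and for amh, dmrt1 and insl3 (diamonds with 1 SE; insl3 was not tested in ovary). Grey bands span the middle 50% and 90% of all genes tested and the line is their median; the horizontal scales differ between panels.

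Among 4352 genes with a symbol and an average log2 CPM of at least 3 in testis, the 5 most like each factor over the 15 libraries were found by Pearson r of log2 CPM. Star was most like insl3 (r = 0.998, and 0.980 after removal of the stage means), followed by tspan4b, tcf21, ghrb and zgc:114041 (r = 0.993 to 0.994). Most like amh were lgi1b (r = 0.986), fdx1b (r = 0.985), avpi1, lnx2a and ogdha. Most like dmrt1 were mob3a (r = 0.985), aldh7a1, clic1, bsg and adss2. In the 13 ovary libraries the genes most like amh were nfybb (r = 0.955), il6r, arsk, vamp8 and ago4. The libraries share the stage contrast, in which most genes of testis moved, so the r values describe likeness of pattern only.

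Outside the gonads amh was detected in all 48 libraries of muscle and head kidney, and in muscle it was lower at spawning in both sexes. Ocean females 2, 4, 5 and 7 had 3.19, 2.91, 4.27 and 3.49 CPM in muscle, and river females 1, 7, 8 and 9 had 8.12, 3.82, 3.58 and 5.82 CPM. Spawning females 2, 3, 4 and 5 had 1.93, 0.281, 1.02 and 0.766 CPM, all below every earlier female. The change from ocean to spawning was -2.56 ± 0.46 on the log2 scale (edgeR, adjusted p = 5.07e-04), where 50.5% of genes were called, and from river to spawning -2.59 ± 0.46 (adjusted p = 5.03e-04), where 48.3% were called. From ocean to river it was 0.02 ± 0.42 (edgeR, adjusted p = 0.993), where 0.0415% were called.

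Male muscle showed the same fall. Ocean males 1, 3, 8 and 9 had 4.28, 2.74, 4.52 and 4.79 CPM of amh, and river males 2, 3, 4, 5 and 6 had 5.45, 4.15, 3.75, 5.49 and 0.496 CPM. Spawning males 7, 8 and 9 had 0.311, 0.570 and 0.341 CPM. The library labelled river male 6 lay within the spawning range and apart from the other 4 river males. It stood apart beyond amh: its 10 most abundant genes held 16.6% of counts, against 38.3% to 45.8% in the other river males and 15.2% to 16.4% in spawning males. The change from ocean to spawning was -4.49 ± 0.77 (edgeR, adjusted p = 0.00251), where 40.2% of genes were called. From river to spawning it was -3.54 ± 0.73 (edgeR, adjusted p = 0.00897), where 23.3% were called, and -3.83 without river male 6 (adjusted p = 2.59e-05). From ocean to river it was -0.95 ± 0.54 (edgeR, adjusted p = 0.455), where 0.145% were called. Muscle amh thus fell while gonad amh rose, at levels of 9 counts or fewer per library in spawning male muscle. Scaling by library size alone, which moved the median of all genes from ocean to spawning to 1.18 in male and 0.76 in female muscle, gave -3.30 and -1.79 for amh.

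In head kidney amh ranged from 0.136 to 13.1 CPM and no stage comparison was called. Spawning male 9 had 13.1 CPM against 0.432 to 0.753 in the other 3 spawning males, and river male 6 had 11.6 CPM against 0.136 to 0.575. The changes from ocean to spawning were 2.09 ± 1.51 in males (edgeR, adjusted p = 0.447), where 6.76% of genes were called, and 1.11 ± 0.62 in females (adjusted p = 0.304), where 7.92% were called. From ocean to river 0% of genes were called in male and 0.117% in female head kidney, and from river to spawning 9.22% and 8.46%. Neither high library held dmrt1 counts, insl3 was at 1 and 0 counts in them, and sycp1 was at 0.675 and 7.53 CPM. Their fshr levels were 0.0614 and 0.195 CPM.

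The other 2 factors were nearly absent outside the gonads. A count of dmrt1 was seen in 7 of 48 libraries, at most 5 counts, and of insl3 in 6 of 48, at most 2 counts. Those with insl3 were muscle of spawning males 8 and 9, head kidney of spawning female 2 and spawning males 9 and 10, and head kidney of ocean male 6. A library at 0 allows up to 3 counts, which is 0.102 to 0.220 CPM at these depths. Of the 7 libraries with dmrt1, 6 were from males and had 2 to 5 counts beside 4.48 to 156 CPM of sycp1, the highest being head kidney of ocean male 6. The other was muscle of river female 1, with 1 count and no sycp1. High sycp1 did not always come with dmrt1: river male 5 had 31.8 CPM of sycp1 in head kidney and 10.6 CPM in muscle, with no dmrt1 count in either. Whether these counts came from testis RNA was not tested.

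**Figure D4:**
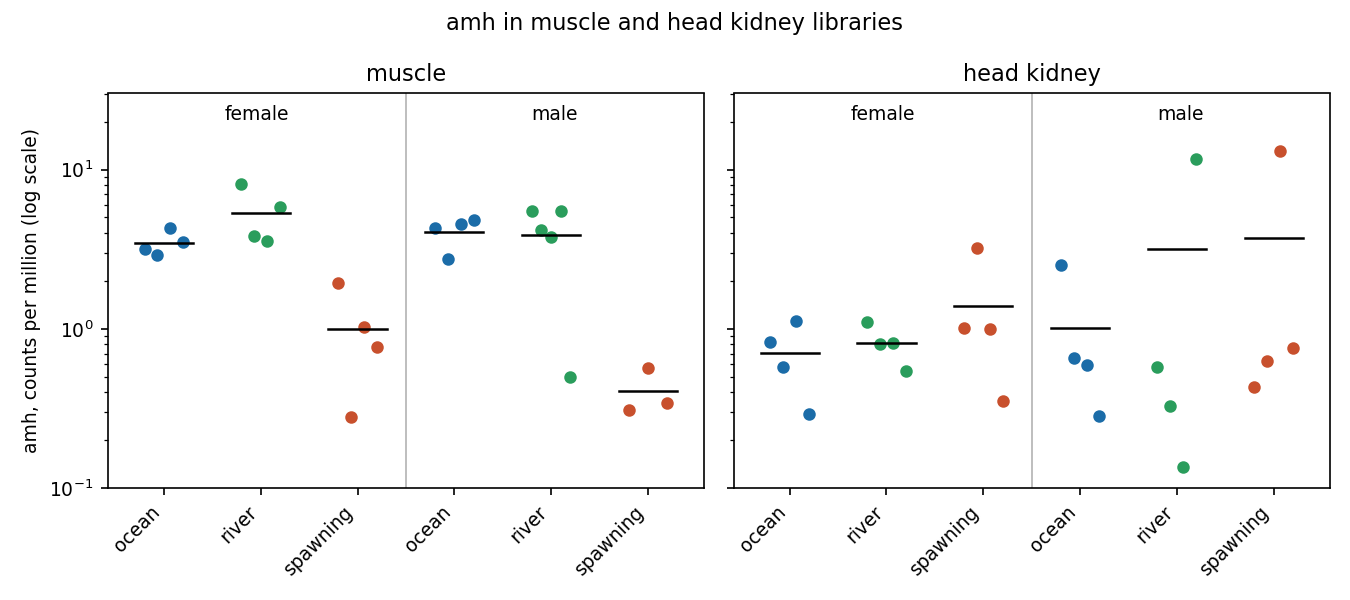
Level of amh in each muscle and head kidney library by sex and stage, in CPM on a log axis; points are libraries and bars are group means. Spawning muscle lies between 0.281 and 1.93 CPM, below all ocean libraries, and river male 6 at 0.496 CPM is the 1 river muscle library in that range.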

How the data were processed

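The deposited values are expected counts, estimates of the reads of each gene, in 76 columns with unequal totals and no scaling. The submitters' processing notes name Salmon 1.8.0, Trim Galore 0.6.4 and R 4.3.3 without roles; the genome build is not given in the sources used here. Counts were rounded. Of all values 36.4% were not whole. The smallest chi-square per gene among 125 pairs within groups was 12.7, so no library was a copy of another in its group. Pairs across groups were not part of this check.

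Separate edgeR 4.0.16 fits were made for every tissue in either sex (filterByExpr by stage, TMM, quasi-likelihood, 3 stages sharing 1 spread), and all gonads together for sex. Calls needed a Benjamini-Hochberg adjusted p under 0.05 over all genes tested. Ratios used 0.5 added counts. Fits were tested on simulated data in which a small share of genes changed, as many up as down. That setting does not cover testis at spawning, where most genes moved. Alternatives were DESeq2 1.42.0, no filter, RLE scaling, scaling by library size only, the 2 groups alone, fish number as a block and leaving out each library.

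The 3 genes and 17 gene lists, of which 122 of 281 genes matched by symbol, were chosen with earlier results of these data known. Named were the 3 genes, called members of the pathway and family lists, at most 4 called members by adjusted p of each other list, and the 5 genes most like each factor. Genes such as amhr2 and gsdf have no row by symbol. The gene sycp1 was picked outside that rule, after its values were seen, and so was fdxr in testis. Library names begin with O in fish labelled river, and that reading was not checked against another source. Fish numbers do not pair stages, since each stage holds other fish: correlations of same-numbered deviations ran from -0.375 to 0.232 in females and from -0.0884 to 0.167 in males.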

Additional observations from a re-analysis of the deposited data

Results flagged for a closer look

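Of 25 groups of 4 or 5 libraries examined for a library far from the others in CPM, 4 held one, all for amh. Chance alone marks about 1 in 20 groups where values are normally distributed, which CPM at low counts need not be. In river ovary it was female 7, with 103 CPM. In head kidney these were ocean male 1 with 2.51 CPM, river male 6 with 11.6 CPM and spawning male 9 with 13.1 CPM. Leaving out river male 6 or spawning male 9 turned the sign of the ocean to river or ocean to spawning difference in male head kidney, neither of which was called.

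The change from ocean to spawning differed between ovary and testis for 2 genes by the interaction term. It was -1.70 for amh (edgeR, adjusted p = 0.0134) and -8.34 for insl3 (adjusted p = 3.65e-05). For insl3 the gene passed the filter on low counts through testis alone, against ovary libraries of 0 to 42 counts.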

How the results depend on the processing

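Among the tested values of amh, dmrt1 and insl3, RLE scaling, DESeq2 and fits of the 2 compared groups changed no direction and no call. The testis calls kept their side of the threshold under every alternative run. Library size only and no filter turned the sign of the spawning female minus male difference of amh, to 0.059 and 0.037, neither called.

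Fish numbers do not pair the fish. With fish number as a block, the log2 fold change of ovary amh from river to spawning was 1.40 (edgeR, adjusted p = 0.126), and that of ovary dmrt1 was 3.85 from ocean (adjusted p = 0.0919) and 5.92 from river (adjusted p = 0.125). Muscle amh from river to spawning was -2.01 in females (adjusted p = 0.389) and -3.90 in males (adjusted p = 0.114). Signs turned for amh in female head kidney from river to spawning (-0.44), female muscle from ocean to river (-0.31) and male head kidney from river to spawning (-2.81). The block lowered the number of genes called to 5528 and 1611 in ovary (ocean and river to spawning; 10286 and 10734 without it), 2349 in testis from ocean to river (11037 without it) and 7036 between the sexes at spawning (12755 without it). DESeq2 called 149 genes in ovary from ocean to river, and edgeR 0.

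Leaving out 1 library gave -0.19 to 0.21 for amh in female muscle from ocean to river, -0.49 to 0.21 for amh between the sexes at spawning, 0.75 to 3.16 for the dmrt1 interaction and -0.22 to 0.39 for testis dmrt1 from ocean to river. For amh in male head kidney it gave -1.41 to 2.67 from ocean to river, -0.59 to 2.97 from ocean to spawning and -2.42 to 3.50 from river to spawning. The cause of these changes was not tested. Depth limits dmrt1 and insl3 in ovary, which rest on 1 to 122 pooled counts per group.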

Other observations

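The growth factor genes of the gonad were outside the comparisons above. In testis igf2b rose by 5.72 ± 0.48 on the log2 scale from ocean to spawning (edgeR, adjusted p = 2.32e-08) and igf1ra, a receptor gene, by 3.86 ± 0.57. The fish gonad gene igf3 fell by 1.94. In ovary igf1 fell by 4.98 (edgeR, adjusted p = 2.59e-05), from 6.72 to 14.4 CPM in ocean to 0.0700 to 0.694 CPM in spawning females, and igf2b rose by 1.02 ± 0.26.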
